A study of Mus musculus with 28 samples.

Results

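The alcohol diet was compared with chow in the non-tumor liver of control mice, the animals whose interleukin-17 receptor A gene, Il17ra, was not deleted. The comparison rests on 7 of the 28 libraries of the study, 4 of them fed alcohol and 3 fed chow, chosen by genotype, diet and tissue as the sample names give them. Libraries are written with A for the alcohol diet or C for chow and the mouse number of the sample name (A503, A523, A581, A595, C157, C158 and C159). All mice of the study were C57BL/6 and received the liver carcinogen diethylnitrosamine (DEN) by intraperitoneal injection, 25 mg/kg at 2 weeks of age, followed by 18 weeks of feeding. Control mice carried Il17ra alleles flanked by loxP sites and no Cre recombinase (FF mice). The mice set beside them carried in addition a Cre driven by the albumin promoter, which removes the receptor from hepatocytes and leaves it in other cells (dHEP mice, again 4 on the alcohol diet and 3 on chow). Tumors of the FF mice, 4 on the alcohol diet and 3 on chow, formed the third comparison. The treatment label calls the diet high-fat with alcohol and the design text calls it liquid ethanol, so ethanol, fat and diet form cannot be told apart here. The alcohol mice carry numbers of another series than the chow mice, and an effect of cohort and an effect of diet cannot be told apart. Non-tumor liver here is liver of a DEN-treated animal, not of an untreated one, and the labels give no sex.

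Hepatocytes oxidise ethanol to acetaldehyde and then to acetate, through alcohol dehydrogenases, the cytochrome P450 enzyme CYP2E1, catalase and aldehyde dehydrogenases. Chronic ethanol feeding is known for fat storage in hepatocytes as lipid droplets, whose coat and fusion proteins are the perilipins and the CIDE proteins. It is also known for effects on sulfur amino acid and one-carbon metabolism, on bile acid handling and on liver macrophages.

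Values are reads per 1000000 reads (CPM), so each library has the same sum, and the 7 libraries held 9.52 to 16.8 M reads each (M, 1000000 reads) as estimated from their low values. Markers matched liver as the labelled organ, and they cannot tell tumor from non-tumor liver. The 8 hepatocyte markers summed to 51150 to 79419 CPM on alcohol and 86952 to 90370 CPM on chow, and pancreas markers summed to at most 23.6 CPM in any of the 7 libraries. The hepatocyte sum thus lay lower in every alcohol library, with albumin (Alb) at 37640, 40044, 53739 and 26838 CPM on alcohol against 59651, 64143 and 55819 CPM on chow (log2 fold change -0.64 ± 0.35 SE, limma adjusted p = 0.45). In bulk tissue, fewer cells of a type and less RNA per cell cannot be told apart. Il17ra itself was present in all 7 libraries, at 17.6, 29.4, 18.5 and 31.0 CPM on alcohol (A503, A523, A581 and A595, the order kept below) and 23.1, 20.2 and 14.7 CPM on chow (C157, C158 and C159).

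A few of the 7 libraries stood apart. Chow C158 read 374 CPM of the cytochrome P450 gene Cyp3a41a, against at most 3.0 CPM in the other 6, and only 19.2 CPM of Cyp4a12a, against 219 to 362 CPM. These genes are known for sex-biased expression in mouse liver. Libraries A523 and A581 read 213 and 159.2 CPM of the fetal liver gene Afp, which stood at 8.82 and 1.47 CPM in A503 and A595 and at 2.9 to 6.07 CPM on chow. They also read 25.8 and 17.6 CPM of Gpc3, a surface proteoglycan of liver tumors, against 1.09 to 15.6 CPM in the other 5. Alcohol A595 read 6018 CPM of the fatty acid desaturase gene Scd1, against 26718 to 39944 CPM in the other alcohol libraries, and 1708 CPM of the chaperone gene Hspa5, against 574 to 750 CPM in the other 6. The results below were therefore also computed without A523 and A581, and without A523, A581 and C158.

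**Figure D1:**
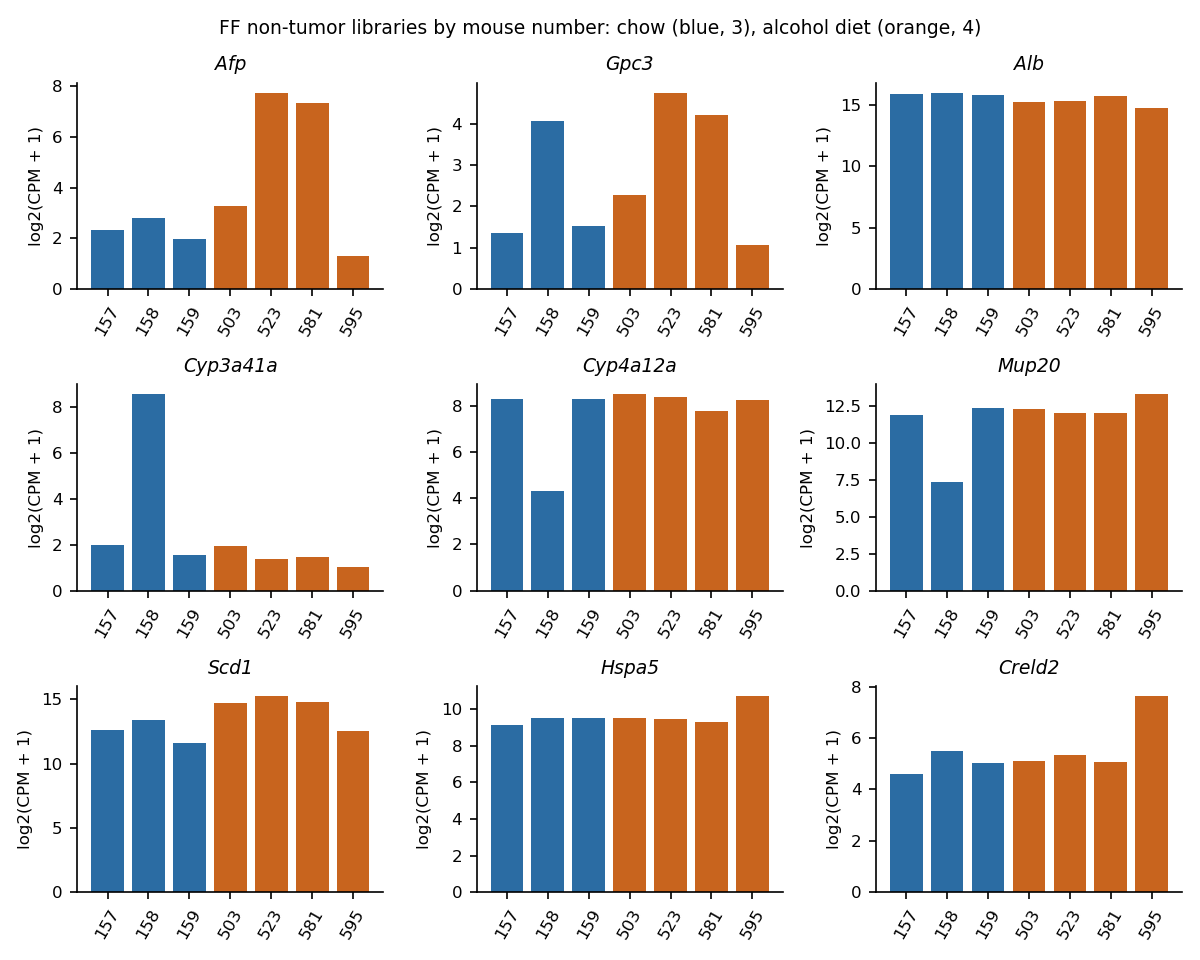
Level of 9 genes in each FF non-tumor library, as log2(CPM + 1) on the vertical axis, with mouse numbers on the horizontal axis and 1 bar per library (blue, chow; orange, alcohol diet). Mouse C158 is alone in its high Cyp3a41a and low Cyp4a12a, A523 and A581 read 213 and 159.2 CPM of Afp, and A595 is highest in Hspa5 and Creld2.

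Of 12651 genes tested, 73 (0.577%) passed an adjusted p of 0.05 in limma with Benjamini-Hochberg adjustment over all genes. On the alcohol diet 32 genes were higher (0.253%) and 41 were lower (0.324%). Cfd, Cidec, Cidea, Wee1, Gpc1 and Adgrv1 had the largest rises. The vasopressin receptor gene Avpr1a, the enzyme genes Agxt, Cth and Hal and the cytochrome P450 genes Cyp2c54 and Cyp2c37 were among the falls. At an unadjusted p of 0.05, 948 genes were higher (7.49%) and 819 lower (6.47%), and the median log2 fold change of all tested genes was 0.006. Of all tested genes, 6464 had a positive and 6187 a negative log2 fold change. Every alcohol library lay above every chow library in 530 genes (4.19%) and below it in 646 (5.11%). The shares of all tested genes given here are the background for the list counts below. All 73 called genes had groups that did not overlap. With such groups no choice of libraries, pseudocount, filter or weights can turn a sign, and only rescaling could. None changed sign under median-of-ratios scaling.

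The calls depended on single libraries. Leaving out A523, A581, C157, C158 or C159 left 8, 26, 15, 13 and 3 of the 73 calls. Leaving out A503 or A595 kept 67 and 69 of them, and brought the totals to 77 higher and 75 lower, and to 139 higher and 77 lower. Only Cidec, Adgrv1 and Slco2a1 kept their call in all 7 of these fits, and 16 genes kept it in at least 4. A fit of the 7 libraries alone, without the spread of the dHEP libraries, called 1 gene, Slc45a3 (adjusted p = 0.048). Without A523 and A581, 1 gene was called higher and 8 lower. Without those and C158, 3 genes were called, all lower and all enzymes of sterol synthesis: Cyp51, Idi1 and Tm7sf2. In each of these 3 the libraries left out were those nearest the other diet group.

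**Figure D2:**
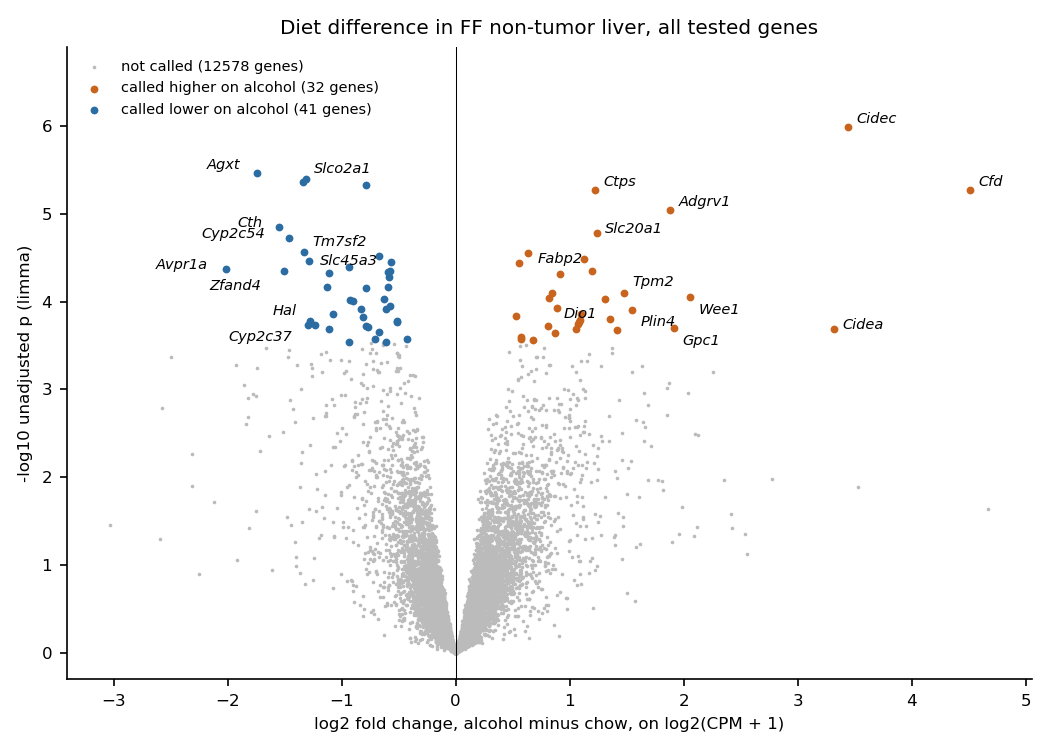
Log2 fold change (alcohol minus chow, horizontal axis) against the negative log10 of the unadjusted limma p (vertical axis) for the 12651 tested genes, 1 point per gene, with names on 22 of the 24 genes taken as the largest called changes. The 32 genes called higher (orange) reach further from 0 than the 41 called lower (blue), with Cfd at 4.51 and Avpr1a at -2.01.

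Cidec encodes a protein that fuses lipid droplets into larger ones (chr6:113424634-113435760, minus strand, GRCm38). It read 35.7, 93.8, 95.7 and 42.1 CPM on alcohol, against 6.37, 3.17 and 4.92 CPM on chow. The lowest alcohol library thus lay well above the highest chow library. The means were 66.8 ± 32.4 (SD, n = 4) and 4.82 ± 1.6 (SD, n = 3), a 13.9-fold ratio, with a log2 fold change of 3.45 ± 0.42 (SE) and a limma adjusted p of 0.0098. Without A523, A581 and C158 the change was 2.59 ± 0.45 and no longer called (adjusted p = 0.12). In Cidec A523 and A581 were the highest alcohol libraries and C158 the lowest chow library, so leaving them out could only shrink the change.

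Cidea, its relative with the same fusion activity, read 15.0, 25.9, 36.7 and 2.95 CPM on alcohol, against 1.04, 0.0906 and 0.829 CPM on chow. The groups did not overlap, and A595 came closest to chow. The log2 fold change was 3.32 ± 0.66 (adjusted p = 0.042), and only the fit without A595 kept the call (adjusted p up to 0.13 in the other 6). Plin4, a perilipin coat protein, read 106.3 to 248.5 CPM on alcohol, against 82.1, 34.1 and 49.5 CPM on chow (log2 fold change 1.55 ± 0.29, adjusted p = 0.037). Its call was lost without A523, A581, C158 or C159 (adjusted p up to 0.13).

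Of the 18 lipid droplet genes tested, 3 rose (Cidec, Cidea and Plin4) and none fell, beside 0.253% and 0.324% of all tested genes. At an unadjusted p of 0.05, 8 were higher and 1 was lower, beside 7.49% and 6.47% of all tested genes. The list's median log2 fold change was 0.46, beside 0.006 over all tested genes. Mgll, a monoacylglycerol lipase, stood at 181, 256, 256 and 261 CPM on alcohol against 145, 166 and 166 CPM on chow, just short of the threshold (0.57 ± 0.12, adjusted p = 0.0505). Fitm2, which takes part in droplet formation, stood at 0.66 ± 0.15 (adjusted p = 0.058). The member on the other side was Plin5, the perilipin of oxidative tissue, at 35.8, 40.7, 59.5 and 51.9 CPM on alcohol, against 83.4, 66.7 and 68.2 CPM on chow (-0.64 ± 0.17, adjusted p = 0.1). Plin2, the usual perilipin of fatty liver, overlapped between the groups at 447, 700, 871 and 388 CPM against 485, 656 and 652 CPM.

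Cfd encodes adipsin, a complement protease secreted by fat cells (chr10:79890853-79892655, plus strand). It had the largest rise of all called genes. It read 96.0, 46.3, 85.7 and 20.8 CPM on alcohol, against 4.39, 0.0906 and 1.3 CPM on chow, with means of 62.2 ± 34.9 and 1.93 ± 2.22 (SD). The ratio of means was 32.3, the log2 fold change 4.51 ± 0.63 and the adjusted p 0.0098, and the call was lost only without C159 (adjusted p = 0.067). Other fat cell markers were near 0. Cfd was the only 1 of 6 fat cell markers with enough signal to test, Plin1 and Lep were listed at 0 in all 7 libraries, and Adipoq read at most 0.2 CPM in any of them. Fabp4, the fatty acid carrier of fat cells and macrophages, read 10, 16.4, 27.9 and 12.4 CPM on alcohol, against 7.1, 5.43 and 3.97 CPM on chow (1.37 ± 0.29, adjusted p = 0.053).

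Among 18 genes of fatty acid uptake and lipoproteins, 1 rose and none fell (median log2 fold change 0.05). That gene was Fabp2, the intestinal-type fatty acid binding protein. It read 85.2, 110, 133 and 73.8 CPM on alcohol, against 43.7, 39.9 and 43.1 CPM on chow (1.20 ± 0.20, adjusted p = 0.024). Its call was lost without A523, C157, C158 or C159 (adjusted p up to 0.11). Angptl4, an inhibitor of lipoprotein lipase, stood the other way, at 80.2, 94.1, 122 and 153 CPM against 189, 189 and 268 CPM (-0.96 ± 0.22, adjusted p = 0.058). Hepatic lipase, Lipc, stood at -0.52 ± 0.12 with the same adjusted p. Outside the lists, the cholesterol exporter gene Abca1 rose from 450 ± 52.3 to 698 ± 33.0 CPM (0.64 ± 0.10, adjusted p = 0.024). Gpat4, an acyltransferase of glycerolipid synthesis, rose from 188 ± 11 to 281 ± 20.4 CPM (0.58 ± 0.12, adjusted p = 0.048). Abca1 lost its call without A523, C157 or C159 and Gpat4 without A523, A581, C157, C158 or C159, with adjusted p up to 0.11 and 0.17.

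**Figure D3:**
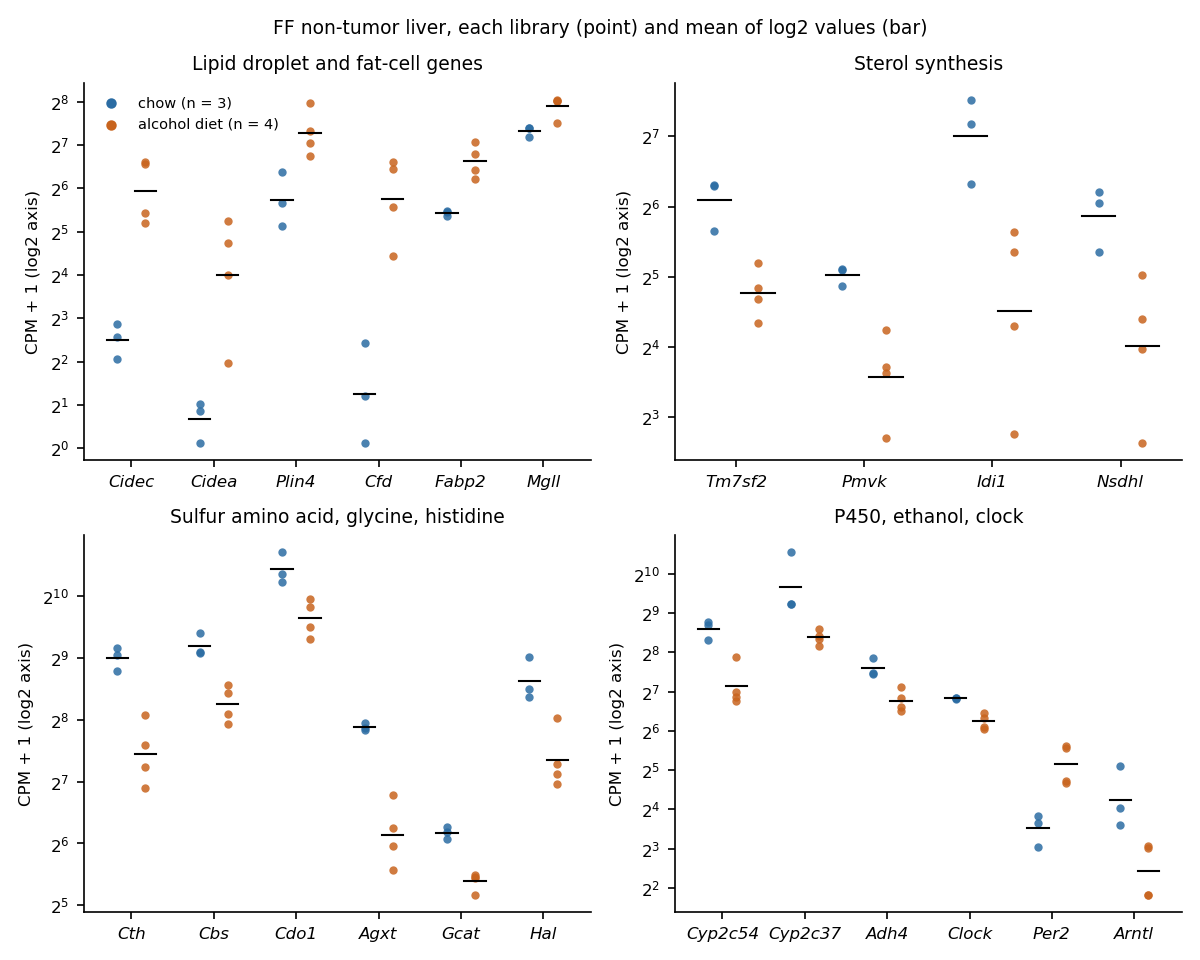
CPM + 1 on log2 axes in each of the 7 FF non-tumor libraries, 1 point per library (blue, chow, n = 3; orange, alcohol diet, n = 4), with a bar at the mean of the log2 values. The 4 panels hold lipid droplet and fat-cell genes, sterol synthesis genes, amino acid enzymes, and P450, ethanol and clock genes, and in every gene shown the groups do not overlap.

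Fatty acid synthesis showed no call in either direction among 22 genes tested (4 higher and 0 lower at an unadjusted p of 0.05, median log2 fold change 0.06). Of all tested genes, 7.49% were higher and 6.47% lower at that threshold. Scd1 read 26718, 39944, 28955 and 6018 CPM on alcohol, against 6331, 10921 and 3204 CPM on chow, so 3 alcohol libraries lay above all chow libraries and A595 lay among them (1.78 ± 0.60, adjusted p = 0.2). Thrsp, a lipogenic regulator, read 274, 386, 262 and 110 CPM against 103, 36.0 and 101 CPM (1.69 ± 0.43, adjusted p = 0.09). Elovl6, a fatty acid elongase, stood at 0.94 ± 0.30 (adjusted p = 0.18). Each of these was called once A595 was left out (adjusted p = 0.027 for Scd1, 0.02 for Thrsp and 0.02 for Elovl6). In Scd1 and Thrsp A595 was the lowest alcohol library, so leaving it out could only widen the rise. That fit also called more genes in all than the main fit. Fatty acid synthase, Fasn, read 1167, 1418, 929 and 167.2 CPM against 470, 618 and 628 CPM, again with A595 apart, and its log2 fold change went from 0.33 ± 0.57 to -0.36 without A523 and A581.

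Fatty acid oxidation genes were split, with 14 of 27 higher and 13 lower in log2 fold change, and 1 called. Vnn1, a pantetheinase and a known target of the fatty acid sensor PPAR-alpha, rose from 55.8, 69.2 and 62.7 CPM on chow to 95.7, 144, 188 and 123 CPM on alcohol (1.09 ± 0.21, adjusted p = 0.041). The call was lost without A523, A581, C157, C158 or C159 (adjusted p up to 0.13). Acaa1b, a peroxisomal thiolase, stood at 1740 ± 571 against 813 ± 163 CPM (1.05 ± 0.24, adjusted p = 0.058). Acadl, a mitochondrial acyl-CoA dehydrogenase, stood at -0.38 ± 0.12 (adjusted p = 0.16).

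Sterol synthesis genes lay lower on alcohol as a list. Of 24 genes tested, 23 had a negative log2 fold change, and the median was -0.89 beside 0.006 over all genes. At an unadjusted p of 0.05, 16 of the 24 were lower and 0 higher, beside 6.47% and 7.49% of all tested genes. In 10 of the 24 every alcohol library lay below every chow library, as in 5.11% of all tested genes. The summed CPM of the list was 1004 to 3102 on alcohol and 3121 to 3468 on chow. One gene fell by the adjusted test. Tm7sf2, a sterol C14 reductase, read 24.6, 27.6, 35.5 and 19.2 CPM on alcohol, against 77.3, 49.5 and 78.4 CPM on chow (log2 fold change -1.33 ± 0.22, adjusted p = 0.024). Its call was lost without A523, C157 or C159 (adjusted p up to 0.11).

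Idi1, the isopentenyl diphosphate isomerase of the early pathway, read 18.6, 39.7, 48.9 and 5.77 CPM on alcohol, against 144, 78.7 and 182 CPM on chow (-2.49 ± 0.54, adjusted p = 0.053). Pmvk, phosphomevalonate kinase, read 11.3, 12.1, 17.9 and 5.51 CPM against 28.3, 33.6 and 33.3 CPM (-1.46 ± 0.31, adjusted p = 0.053). Nsdhl, a sterol dehydrogenase, read 14.7, 20, 31.7 and 5.19 CPM against 65.0, 39.9 and 72.6 CPM (-1.86 ± 0.44, adjusted p = 0.071). In all 3 genes A595 was the lowest library and A581 the highest alcohol library. Cyp51, lanosterol demethylase, read 31.9, 60.8, 106 and 22.2 CPM against 158.4, 114 and 219 CPM (-1.75 ± 0.43, adjusted p = 0.082). Without A523, A581 and C158 the changes were larger, each with a limma adjusted p of 0.03. They stood at -1.79 ± 0.21 for Tm7sf2, -3.82 ± 0.46 for Idi1 and -2.76 ± 0.34 for Cyp51. In these 3 genes A523 and A581 were the highest alcohol libraries and C158 the lowest chow library. Leaving them out could therefore only widen the change, and just A503, A595, C157 and C159 remained. Without A595 alone the changes were smaller, at -1.18 for Tm7sf2, -1.91 for Idi1 and -1.40 for Cyp51. The pathway's transcription factor gene Srebf2 stood at 25.0, 23.6, 27.0 and 19.5 CPM against 44.5, 42.2 and 30.8 CPM (-0.69 ± 0.19, limma adjusted p = 0.11).

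SREBP-2, the product of Srebf2, acts through sterol response elements in promoters. The letters CACNCCAC (N, any base; either strand) occurred in the 300-base promoter window of 6.24% of 32851 RefSeq windows on GRCm38.p6, and in 2 of the list's 19 windows (10.5%; 16 genes), those of Hmgcs1 and Insig1. The window of Hmgcs1, which encodes the synthase at the head of the pathway, is shown because its group values did not overlap, at 155.2, 285, 299 and 32.3 CPM on alcohol, against 326, 488 and 414 CPM on chow (-1.48 ± 0.60, adjusted p = 0.29). Without A595, the lowest library, the change in Hmgcs1 was -0.77. Insig1 overlapped between the groups (-0.73 ± 0.40). Printed are the 250 bases before the start site of Hmgcs1 (chr13:119690101-119690350, plus strand), with the match in capitals, starting at base 115. A match of these letters is a description of the sequence, and binding was not measured.
Hmgcs1: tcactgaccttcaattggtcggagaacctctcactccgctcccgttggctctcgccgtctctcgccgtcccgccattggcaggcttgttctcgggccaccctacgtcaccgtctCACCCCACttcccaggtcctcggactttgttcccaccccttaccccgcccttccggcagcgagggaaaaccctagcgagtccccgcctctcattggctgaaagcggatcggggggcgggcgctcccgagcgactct

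Cth encodes cystathionine gamma-lyase, which makes cysteine from cystathionine (chr3:157894248-157925077, minus strand). It read 269, 150, 193 and 118 CPM on alcohol, against 441, 573 and 530 CPM on chow. Its means were 183 ± 65.3 and 515 ± 67.2 CPM (SD), a 2.82-fold ratio of chow to alcohol (log2 fold change -1.55 ± 0.24, adjusted p = 0.02). Cbs, the preceding enzyme of the pathway, read 379, 274, 344 and 244 CPM against 546, 680 and 539 CPM (-0.93 ± 0.16, adjusted p = 0.024). Cysteine dioxygenase, Cdo1, was in no list and was chosen after its values were seen. It read 988, 726, 912 and 633 CPM against 1315, 1676 and 1201 CPM (-0.79 ± 0.16, adjusted p = 0.041). The highest alcohol library lay below the lowest chow library in all 3 genes. The calls were lost without A523, C158 or C159 for Cth, without these or C157 for Cbs, and without these, C157 or A581 for Cdo1 (adjusted p up to 0.091, 0.093 and 0.12).

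Of 21 genes of serine and one-carbon metabolism, 2 fell (Cth and Cbs) and none rose, with a median of -0.24. Over all tested genes, 0.324% fell and 0.253% rose, with a median of 0.006. Gnmt, the glycine methyltransferase that consumes the methyl donor S-adenosylmethionine, stood at 896, 525, 761 and 499 CPM against 1218, 1149 and 1239 CPM (-0.89 ± 0.22, adjusted p = 0.085). Mthfd1, a folate enzyme, stood at -0.45 ± 0.11 (adjusted p = 0.08).

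Agxt, which converts glyoxylate to glycine in peroxisomes (chr1:93135240-93145421, plus strand), read 109, 46.7, 74.8 and 61.3 CPM on alcohol, against 247, 227 and 232 CPM on chow. The chow mean was 235 ± 10.3 CPM (SD), and the alcohol mean was 72.8 ± 26.5 (-1.75 ± 0.23, adjusted p = 0.0098). The call was lost only without C159 (adjusted p = 0.058). Gcat, a glycine acyltransferase of threonine breakdown, fell from 66.4, 71.7 and 76.4 CPM on chow to 43.1, 34.8, 44.0 and 42.3 CPM (-0.79 ± 0.11, adjusted p = 0.0098), and its call too was lost only without C159 (adjusted p = 0.073). Gcat was chosen after its values were seen, as was Pipox. Pipox, the peroxisomal oxidase of pipecolate and sarcosine, fell from 250 ± 9.77 to 166 ± 17.8 CPM (-0.59 ± 0.10, adjusted p = 0.024, lost without A523, C157, C158 or C159 with adjusted p up to 0.12).

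In the urea cycle and amino acid list of 19 genes, 2 fell (Agxt and Hal), none rose, and 18 had a negative change (median -0.39). Of all 12651 tested genes, 0.324% fell and 6187 had a negative change. Hal, the first enzyme of histidine breakdown, read 260, 139, 154.9 and 124 CPM on alcohol, against 361, 517 and 330 CPM on chow (-1.28 ± 0.25, adjusted p = 0.041, lost without A523, A581, C157, C158 or C159 with adjusted p up to 0.11). Cps1, the entry enzyme of the urea cycle, stood at 5032, 3106, 3792 and 4393 CPM against 6367, 6205 and 6935 CPM (-0.69 ± 0.19, adjusted p = 0.11). The hepatocyte marker sum was lower in the same libraries, and its part in these falls was not tested.

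The cytochrome P450 list had 2 falls and no rise among 26 genes, 22 of them with a negative change (median -0.38). Falls made up 0.324% of all 12651 tested genes, and 6187 had a negative change. Cyp2c54 (chr19:40037940-40073827, minus strand) read 237, 108, 116 and 127 CPM on alcohol, against 416, 317 and 435 CPM on chow (-1.46 ± 0.23, adjusted p = 0.022, lost without A523, C157 or C159 with adjusted p up to 0.11). Cyp2c37 (chr19:39992424-40012243, plus strand) read 385, 326, 285 and 343 CPM against 607, 1501 and 603 CPM (-1.30 ± 0.26, adjusted p = 0.041). Chow C158 held more than the other chow libraries together, and without it the change was -0.86, not called. Without A523, A581, C157 or C159 the call was lost too (adjusted p up to 0.1). The neighbours Cyp2c29 (-1.14 ± 0.24, adjusted p = 0.053) and Cyp2c50 (-0.73 ± 0.16, adjusted p = 0.055) lay lower in every alcohol library. These genes are close paralogs in 1 cluster, and how reads were shared between them is uncertain. Cyp1a2, a pericentral enzyme of drug and caffeine oxidation, stood at 404, 131, 175 and 202 CPM against 586, 392 and 545 CPM (-1.26 ± 0.28, adjusted p = 0.058).

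Bile acid genes had no call among 23 tested, with 3 higher and 9 lower at an unadjusted p of 0.05 (median -0.21). Over all tested genes the shares at that threshold were 7.49% higher and 6.47% lower. The bile acid uptake carrier Slc10a1 stood at 361, 310, 359 and 338 CPM on alcohol, against 424, 546 and 527 CPM on chow (-0.54 ± 0.11, adjusted p = 0.0505). The export pump Abcb11 stood at 739, 588, 576 and 522 CPM against 933, 1068 and 828 CPM (-0.64 ± 0.13, adjusted p = 0.0505). Slco1a4, an anion uptake carrier, stood at 14.5, 19.5, 21.6 and 4.52 CPM against 64.5, 122 and 72.4 CPM (-2.57 ± 0.66, adjusted p = 0.092). Every alcohol library of these 3 genes lay below every chow library. Abcg5, a subunit of a sterol exporter, lay on the other side, at 264, 141, 217 and 92.9 CPM against 86.3, 84.6 and 77.0 CPM (1.0 ± 0.26, adjusted p = 0.1).

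Of 14 genes of ethanol metabolism, 13 were tested, 1 fell, none rose, and the median log2 fold change was -0.15. Adh4, an alcohol dehydrogenase that also acts on retinol, read 139, 113, 90.1 and 95.9 CPM on alcohol, against 174, 231 and 178 CPM on chow (-0.83 ± 0.16, adjusted p = 0.036, lost without A523, A581, C157, C158 or C159 with adjusted p up to 0.11). The main liver enzyme Adh1 overlapped between the groups, at 1649, 2092, 2039 and 1389 CPM against 1460, 2677 and 1515 CPM (-0.03 ± 0.21). So did Cyp2e1, at 6270, 5637, 5975 and 6741 CPM against 6712, 6093 and 7050 CPM (-0.11 ± 0.16, adjusted p = 0.83), and catalase, Cat (-0.11 ± 0.16). Adh5 (-0.18 ± 0.09) and Adh7 (-0.50 ± 0.20) overlapped as well.

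Among the aldehyde dehydrogenases, the mitochondrial acetaldehyde enzyme Aldh2 read 1061, 1021, 1066 and 919 CPM on alcohol, against 1130, 1346 and 1015 CPM on chow (-0.19 ± 0.12, adjusted p = 0.52). Aldh3a2, which acts on fatty aldehydes, was the 1 member with a positive change, at 779, 1050, 1216 and 672 CPM against 476, 609 and 462 CPM (0.82 ± 0.20, adjusted p = 0.083). Aldh9a1 stood at -0.52 ± 0.20 (adjusted p = 0.27), Aldh1a1 at -0.06 ± 0.19 and Aldh1b1 at -0.04 ± 0.42. Acss2, the cytosolic acetate-activating enzyme, stood at 90.9, 102, 103 and 46.1 CPM against 181, 160 and 173 CPM (-1.06 ± 0.31, adjusted p = 0.14). Acss3 stood at -0.15 ± 0.43, and Acss1 read at most 0.906 CPM in any of the 7 libraries and was not tested.

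The clock list had 1 fall among 18 genes and no rise, with a median of 0.33. Clock, which with Arntl forms the activating pair of the circadian clock, read 87.4, 65.7, 80.0 and 67.8 CPM on alcohol, against 113, 114 and 112 CPM on chow (-0.59 ± 0.11, adjusted p = 0.03, lost without A523, C157, C158 or C159 with adjusted p up to 0.12). Arntl stood at 7.38, 2.54, 7.05 and 2.5 CPM against 15.5, 33.2 and 11.1 CPM (-1.82 ± 0.48, adjusted p = 0.1). The repressor genes Per2 and Per3 stood on the other side. Per2 read 25.5, 46.4, 24.4 and 48.2 CPM against 13.3, 7.25 and 11.6 CPM (1.63 ± 0.37, adjusted p = 0.056), and Per3 read 24.1, 60.1, 47.1 and 33.6 CPM against 14.4, 4.35 and 16.8 CPM (1.81 ± 0.65, adjusted p = 0.22). Dbp, a clock output factor that binds D-box elements, read 31.8, 75.9, 80.9 and 61.9 CPM against 22.2, 1.22 and 26.9 CPM (2.41 ± 0.97, adjusted p = 0.28). The groups did not overlap in any of these 5 genes. In the whole list of 18, every alcohol library lay above every chow library in 5 genes and below it in 3. Of all tested genes, 4.19% lay wholly above chow and 5.11% wholly below. Chow C158 was the lowest library for Per2, Per3 and Dbp and the highest for Arntl, and without A523, A581 and C158 the changes in Per3 and Dbp were 0.83 ± 0.82 and 0.84 ± 1.11. A523 and A581 were the highest alcohol libraries for Per3 and Dbp, so leaving these libraries out could only shrink those changes. The hour at which tissue was taken is not given in the sources used here.

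Wee1, a mitotic checkpoint kinase gene also known as a clock output, was outside the list. It rose from 1.25, 0.996 and 1.42 CPM on chow to 2.97, 16.2, 9.1 and 9.61 CPM on alcohol (2.06 ± 0.38, adjusted p = 0.032), a 7.74-fold ratio of means. Its call was lost without A523, A581, C157, C158 or C159 (adjusted p up to 0.12).

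D-box letters (TTACGTAA or TTATGTAA, either strand) occurred in 1.06% of all 32851 promoter windows and in 1 of the 20 windows of clock genes (5.0%; 15 genes), that of Per3. The E-box CACGTG, the element of CLOCK and ARNTL, occurred in 7.15% of all windows and in 6 of the 20 (30.0%), which belong to 5 genes (Bhlhe41, Ciart, Cry1, Per1 and Tef). The 250 bases before the start site of Per3 are shown because Per3 held the only D-box matches of the list (chr4:151044666-151044915, minus strand, GRCm38.p6, read 5′ to 3′ along the gene). The 2 matches are in capitals and start at bases 46 and 93. They say nothing of whether a factor was bound.
Per3: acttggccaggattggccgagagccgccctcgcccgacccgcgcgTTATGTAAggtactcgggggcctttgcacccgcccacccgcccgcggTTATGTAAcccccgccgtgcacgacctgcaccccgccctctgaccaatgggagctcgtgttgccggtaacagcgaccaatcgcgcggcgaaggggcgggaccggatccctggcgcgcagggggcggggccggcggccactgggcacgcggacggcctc

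Several hormone and transport genes were among the largest changes. Avpr1a, the vasopressin receptor of hepatocytes, had the largest fall, from 28.4, 41.8 and 18.6 CPM on chow to 11, 3.8, 4.22 and 8.0 CPM (-2.01 ± 0.34, adjusted p = 0.024). Slco2a1, a prostaglandin carrier (chr9:102988712-103096002, plus strand), fell from 76.3, 83.0 and 53.5 CPM to 35.4, 21.2, 29.8 and 25.4 CPM (-1.31 ± 0.18, adjusted p = 0.0098). The Slco2a1 call was kept in all 7 fits that left out 1 library, and without A523, A581 and C158 its adjusted p was 0.15. Slc45a3, a solute carrier, fell from 73.7 ± 9.75 to 29.6 ± 2.23 CPM (-1.28 ± 0.21, adjusted p = 0.024). Slc30a10, a manganese exporter, fell from 71.7 ± 9.24 to 32.7 ± 7.36 CPM (-1.13 ± 0.20, adjusted p = 0.03). Zfand4, a zinc finger gene, fell from 34.9 ± 9.13 to 11.7 ± 3.28 CPM (-1.51 ± 0.26, adjusted p = 0.024). Raet1e, a ligand of the NKG2D receptor of natural killer cells, fell from 7.96 ± 0.406 to 3.19 ± 0.723 CPM (-1.11 ± 0.19, adjusted p = 0.024), and its gene model spans near-identical relatives, so its reads are uncertain. Avpr1a, Slc45a3, Slc30a10 and Raet1e lost their call without A523, A581, C157, C158 or C159, and Zfand4 without A523, C157 or C159 (adjusted p up to 0.11).

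Adgrv1, a very large adhesion receptor gene (chr13:81095068-81633154, minus strand), rose from 4.07, 1.81 and 4.86 CPM on chow to 13.3, 22.4, 17.1 and 10.1 CPM (1.88 ± 0.28, adjusted p = 0.014), and kept its call in all 7 fits with 1 library left out. Without A523, A581 and C158 it stood at 1.21 ± 0.23 (adjusted p = 0.14). Here too A523 and A581 were the highest alcohol libraries and C158 the lowest chow library, so the change could only shrink. Ctps, which makes cytidine triphosphate, rose from 3.97, 3.17 and 3.44 CPM to 8.14, 12.7, 8.76 and 9.16 CPM (1.23 ± 0.17, adjusted p = 0.0098, lost only without C159 with adjusted p = 0.067). Slc20a1, a phosphate carrier, rose from 36.0, 18.3 and 27.1 CPM to 68.2, 68.5, 66.6 and 51.0 CPM (1.24 ± 0.19, adjusted p = 0.021). Dio1, which activates thyroid hormone, rose from 96.3, 45.2 and 109 CPM to 177, 232, 172 and 207 CPM (1.31 ± 0.24, adjusted p = 0.032). The heparan sulfate proteoglycan gene Gpc1 rose from 13.7, 5.98 and 9.83 CPM to 42.9, 51.3, 53.9 and 17.5 CPM (1.92 ± 0.38, adjusted p = 0.042). The tropomyosin gene Tpm2 rose from 5.59 ± 1.36 to 17.9 ± 5.93 CPM (1.48 ± 0.27, adjusted p = 0.031). Slc20a1 lost its call without A523, C158 or C159, Dio1 and Tpm2 without A523, A581, C157, C158 or C159, and Gpc1 without those or A503 (adjusted p up to 0.13).

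Trem2, a lipid-sensing receptor of macrophages in injured liver, read 2.59, 3.54, 1.71 and 1.6 CPM on alcohol, against 0.209, 0.543 and 0.118 CPM on chow (1.36 ± 0.26, adjusted p = 0.041), an 8.13-fold ratio of means at a low level. Only the fit without A595 kept this call (adjusted p up to 0.15 in the others). It was the 1 call among 7 tested markers of recruited macrophages and monocytes. Trem2 and Gpnmb reached 1 CPM in no chow library and were tested because of alcohol libraries, so no count or median by direction is given for the list. Its summed CPM was 95.4 to 186 on alcohol and 55.2 to 113 on chow, which overlap. Gpnmb, which marks the same lipid-laden macrophages, read 2.59, 12.8, 5.6 and 0.897 CPM against 0.627, 0.453 and 0.118 CPM (1.85 ± 0.49, adjusted p = 0.1). Lyz2 (0.67 ± 0.25) and Cx3cr1 (0.87 ± 0.36) overlapped between the groups.

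The 7 markers of resident Kupffer cells had positive changes throughout (median 0.61) with no call, and their sum was 626 to 915 CPM on alcohol and 454 to 583 CPM on chow. Cd5l read 151, 247, 203 and 144 CPM against 59.1, 151 and 75.0 CPM (1.04 ± 0.29, adjusted p = 0.12), Adgre1 stood at 0.85 ± 0.28, and Clec4f at 0.43 ± 0.20. Among genes chosen after their values were seen, Tlr7, a sensor of single-stranded RNA in immune cells, rose from 2.75 ± 0.688 to 6.97 ± 1.9 CPM (1.08 ± 0.21, adjusted p = 0.041). Lair1, an inhibitory collagen receptor of immune cells, rose from 3.59 ± 0.501 to 9.22 ± 3.58 CPM (1.10 ± 0.21, adjusted p = 0.039). Both lost the call without A523, A581, C157, C158 or C159 (adjusted p up to 0.16). The Kupffer cell sum lay higher in every alcohol library, and the part of macrophage markers in the changes of genes that macrophages also express, such as Trem2 and Fabp4, was not tested.

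Interleukin-17 and its receptor act through NF-kB on chemokine and acute phase genes. Of 22 listed genes of this kind 16 were tested, with no call and a median of 0.60, beside 0.006 over all tested genes. At an unadjusted p of 0.05, 7 were higher and 0 lower, beside 7.49% and 6.47% of all tested genes. Lcn2, lipocalin-2, read 58.6, 340, 101 and 113 CPM on alcohol, against 35.1, 47.2 and 12.1 CPM on chow (2.13 ± 0.60, limma adjusted p = 0.13). The groups did not overlap, and the exact permutation p of 0.057 is the smallest that 35 splits of 7 libraries allow, so no gene could pass 0.05 by that test. Ccl2, a monocyte chemokine, stood at 1.10 ± 0.37 (adjusted p = 0.2) and Orm3, an acute phase protein, at 1.39 ± 0.46 (adjusted p = 0.18). Saa2, another acute phase gene, read 46.6, 365, 22.3 and 782 CPM against 28, 17.4 and 13 CPM, so the alcohol libraries spread widely and A581 lay within the range of chow (2.77 ± 0.94, adjusted p = 0.2).

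With Lcn2, 5 other genes were chosen for the exact test, and p-values were also adjusted over these 6. The exact two-sided permutation p was 0.4 for Il17ra, 0.17 for Srebf1, 0.057 for Srebf2, 0.11 for Dhcr7 and 0.97 for Casp2, and the smallest adjusted value over the 6 was 0.17. Srebf1, the regulator of fatty acid synthesis, read 557, 413, 411 and 140 CPM on alcohol, against 141, 210 and 96.8 CPM on chow (1.25 ± 0.37, limma adjusted p = 0.14). Without A595 its limma adjusted p was 0.0096. A595 was its lowest alcohol library, so leaving it out could only widen the rise. Dhcr7, the last reductase of cholesterol synthesis, read 30.0, 33.0, 44.5 and 6.15 CPM against 61.5, 37.2 and 53.4 CPM. Casp2, a caspase reported to act on lipid synthesis, read 4.18, 9.61, 7.38 and 5.25 CPM against 4.81, 8.06 and 6.87 CPM.

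Of 26 complement and coagulation genes, 1 fell, none rose and 20 had a negative change (median -0.21). In 11 every alcohol library lay below every chow library. Of all 12651 tested genes, 6187 had a negative change and 5.11% lay wholly below chow. F10, clotting factor X, fell from 369, 404 and 367 CPM on chow to 294, 262, 273 and 304 CPM (-0.42 ± 0.09, adjusted p = 0.048, lost without A523, A581, C157, C158 or C159 with adjusted p up to 0.13). F7 (-0.49 ± 0.11, adjusted p = 0.058), Serpinc1, the gene of antithrombin (-0.41 ± 0.12, adjusted p = 0.12), and F13b (-0.35 ± 0.10, adjusted p = 0.12) lay lower in every alcohol library. Hrg, a histidine-rich plasma glycoprotein noted after its values were seen, fell from 1074, 1068 and 1014 CPM to 708, 704, 689 and 721 CPM (-0.58 ± 0.10, adjusted p = 0.024). Its values spread little within each group, and its call was lost without A523, A581, C157, C158 or C159 (adjusted p up to 0.1).

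Genes of the unfolded protein response had no call and none at an unadjusted p of 0.05 in either direction among 21 (median 0.09). Within the alcohol group they differed by library. Hspa5 read 750, 712, 631 and 1708 CPM, Manf 65.5, 67.5, 55.4 and 153 CPM, and Xbp1 184, 252, 194 and 448 CPM, so A595 was the highest of the 7 libraries in each.

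**Figure D4:**
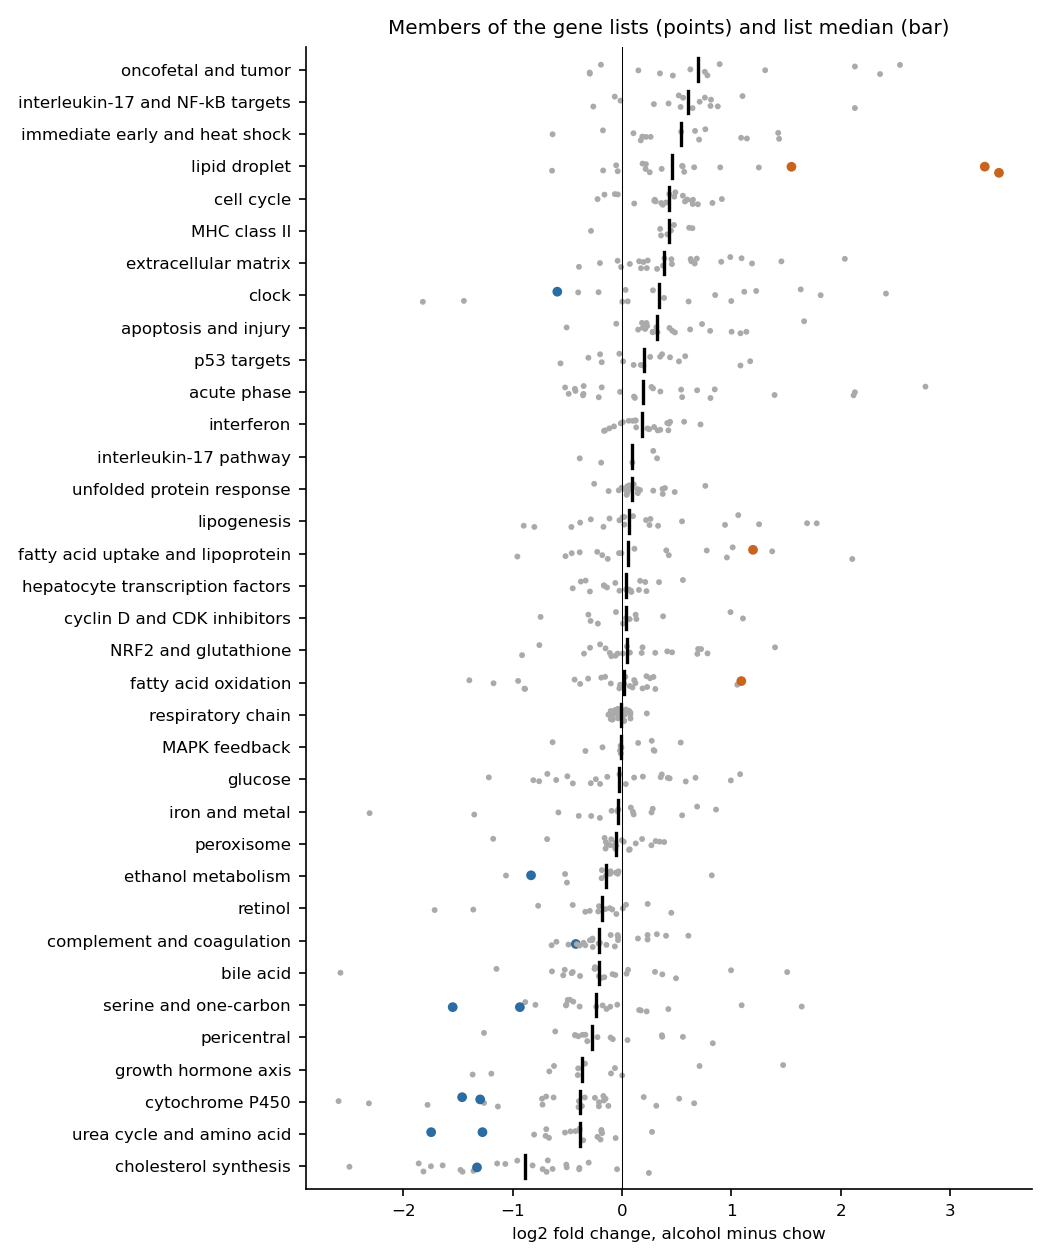
Log2 fold change (alcohol minus chow, horizontal axis) of each tested member of the pathway lists (points; orange, called higher; blue, called lower; grey, not called) with the list median as a black bar, lists ordered by median. Sterol synthesis lies lowest with a median of -0.89, and the 3 called lipid droplet genes lie between 1.55 and 3.45.

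The same diet contrast in dHEP non-tumor liver shares no library with the FF contrast. It called 83 genes (0.656%), 24 higher (0.190%) and 59 lower (0.466%). The dHEP alcohol mice too carry numbers of another series than the dHEP chow mice, so cohort and diet cannot be told apart there either. Both contrasts came from the same fit and share its estimate of spread for each gene, so their calls are not independent. Of the 73 genes called in FF mice, 68 had the same direction in dHEP mice, beside 58.4% of all tested genes. Called in both, in the same direction, were 18 genes, which is 24.7% of the FF calls and 21.7% of the dHEP calls. The change was smaller in size in dHEP mice for 65 of the 73, but the 73 had been selected for passing in FF mice. Plin4 rose in both (1.79 ± 0.29 in dHEP, adjusted p = 0.023), as did Wee1 (2.48 ± 0.38, adjusted p = 0.023). Agxt (-1.30 ± 0.23), Cth (-1.21 ± 0.24), Cbs (-0.87 ± 0.16), Tm7sf2 (-1.35 ± 0.22), Clock (-0.90 ± 0.11) and Slc30a10 (-1.64 ± 0.20) fell in both, with adjusted p in dHEP between 0.0077 and 0.042.

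The difference between the diet effects of the 2 genotypes was tested as an interaction, and no gene passed (0 of 12651, smallest adjusted p = 0.21 in limma). At an unadjusted p of 0.05, 870 genes (6.88%) differed, 28 of them among the 73. The 73 had been selected on the FF contrast, which is part of this difference, so their count cannot be set against that share. Cfd rose by 4.51 ± 0.63 in FF mice and stood at 1.90 ± 0.63 in dHEP mice, where it read 41.6 ± 30.1 CPM on alcohol and 8.47 ± 2.24 CPM on chow (difference 2.61 ± 0.89, adjusted p = 0.72). Cidec stood at 1.67 ± 0.42 in dHEP mice (37.5 ± 19.4 against 10 ± 1.96 CPM; difference 1.78 ± 0.59, adjusted p = 0.72). For both genes the dHEP means were higher than the FF means on chow and lower on alcohol. Adgrv1 stood at 0.36 ± 0.28 in dHEP mice (difference 1.52 ± 0.39, adjusted p = 0.61). Of the called genes noted after their values were seen, P4ha1, a collagen prolyl hydroxylase, rose in FF mice (0.87 ± 0.18) and stood at -0.42 ± 0.18 in dHEP mice (difference 1.29 ± 0.25, adjusted p = 0.33). Serpinh1, a collagen chaperone, rose by 1.05 ± 0.21 and stood at -0.22 ± 0.21 (difference 1.27 ± 0.30, adjusted p = 0.54). The FF calls were lost without A523, C157, C158 or C159 for both, without A503 for P4ha1 and without A581 for Serpinh1 (adjusted p up to 0.16). The sterol synthesis list had a median of -0.89 in FF and -1.6 in dHEP mice, and the Kupffer cell list 0.61 and 0.00, differences that were not tested as lists.

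In tumors of FF mice the diet contrast called 2 genes (0.0148%) of 13503, none of them among the 73. In direction, 64 of the 73 agreed between tumor and non-tumor liver, beside 57.3% of all genes. The alcohol tumors come from the same 4 mice as the non-tumor libraries, and the chow tumors from other mice. No gene passed the interaction of diet and tissue (0 of 13503, smallest adjusted p = 0.4, 801 genes or 5.93% at an unadjusted p of 0.05). Cfd stood at 0.75 ± 0.56 in tumors, where its mean was 1.24 ± 1.2 CPM on alcohol and 0.196 ± 0.0956 CPM on chow (difference 3.76 ± 0.80, adjusted p = 0.46). Cidea stood at -0.20 ± 0.58 in tumors (difference 3.52 ± 0.81, adjusted p = 0.59), and Cidec at 1.54 ± 0.65 (difference 1.90 ± 0.92, adjusted p = 0.83). Avpr1a stood at -2.21 ± 0.67 in tumors and Tm7sf2 at -1.47 ± 0.38, both close to their non-tumor values. The sterol synthesis list had a median of -1.41 in tumors.

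**Figure D5:**
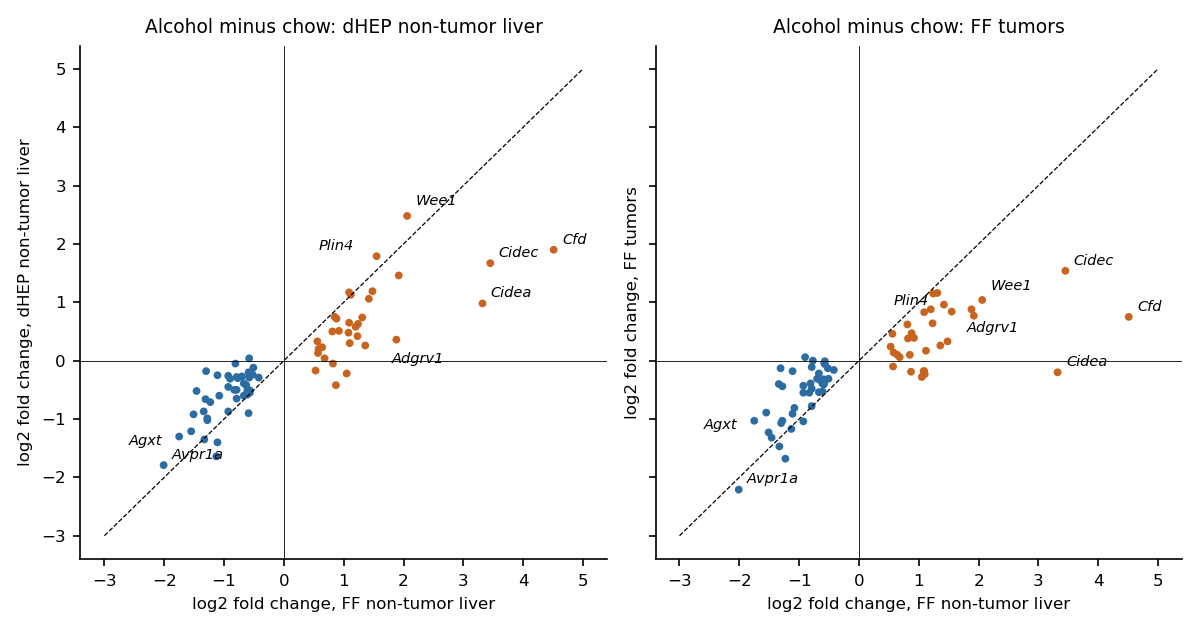
Log2 fold change, alcohol minus chow, of the 73 genes called in FF non-tumor liver (horizontal axes) against the same contrast in dHEP non-tumor liver (left) and FF tumors (right), 1 point per gene (orange, called higher; blue, called lower in FF non-tumor liver), with the line of equality dashed. The genes were selected on the horizontal axis; 68 of 73 share direction on the left and 64 on the right, and Cfd lies at 1.90 and 0.75.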

How the data were processed

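RNA of 28 liver and tumor samples was sequenced, and the authors deposited 1 table of CPM for 22187 genes, for which the submitters' processing notes list RSEM 1.3.0, STAR 2.5.1a and the build GRCm38. Each column sums to 1000000. The molecule is labelled polyA RNA but the kit named is for stranded total RNA, and which was sequenced is not known. Symbols and positions came from GENCODE M21 (21653 IDs matched; the 534 others held at most 0.166% of a library). Of the matched genes, 0 lie on chromosome Y and 0 on the mitochondrial genome. Groups came from the sample names.

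Low values were whole reads to within 0.1 read in 85.2% to 87.4% of cases by library (values up to 20 reads), too few for a count model, and gave depths of 9.52 to 17.76 M reads. In the FF alcohol and FF chow non-tumor groups depth was 13.09 to 15.54 M and 9.52 to 16.8 M. At that depth 1 CPM stands for at least 9.52 reads. Intervals from reads would cover counting error only. Pearson r between FF non-tumor libraries was 0.9771 to 0.9946, so none was taken as a duplicate. Each library of a group carries its own mouse number. The p-values measure the spread between these mice, and cage or day is not given.

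Tests used limma 3.58.1 in R 4.3.3 on log2(CPM + 1), moderated with a trend on mean level, and kept genes reaching 1 CPM in at least 3 of the fitted libraries, with Benjamini-Hochberg (BH) adjustment over all tested genes and a call at an adjusted p below 0.05. The pseudocount of 1 understates the change of low genes. The diet contrast and its difference from dHEP mice came from a fit of all 14 non-tumor libraries, and the tumor contrast and tissue difference from a fit of 28. Fold changes are alcohol minus chow ± SE, and CPM is mean ± SD. Genes could be named by a fixed rule: the 12 largest rises and 12 largest falls among called, non-overlapping named genes averaging 5 CPM or more in the group where they are higher, up to 4 genes of smallest p per list (a few genes are not reported here), all ethanol genes and 6 preset genes. The others were chosen after their values were seen: Abca1, Adipoq, Cdo1, Cyp51, Dbp, Fasn, Fitm2, Foxp1, Gcat, Gpat4, Gpc3, Hmgcs1, Hrg, Hspa5, Insig1, Lair1, Mlec, P4ha1, Pipox, Plin2, Plin5, Serpinh1, Srm, Tlr7 and Vcl. The members and the gene lists were chosen with earlier results of these data known. Lists were described by counts and medians, with no set test. The fit was tested on simulated data.

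Compared diet groups share no mouse. Alcohol tumors and non-tumor liver share mice, and deviations of same-numbered libraries from their group means correlated at 0.16 to 0.36 (0.29, 0.16, 0.3 and 0.36), so a block for the mouse was an alternative for the tissue difference. Promoter windows were RefSeq's, 250 bases before and 50 after each start, on GRCm38.p6.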

Additional observations from a re-analysis of the deposited data

Results flagged for a closer look

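In 7 of 137 genes checked, 1 library of the 4 on alcohol lay so far from the other 3 that its gap, as a share of the group's range, passed Dixon's critical value for 4 samples. Chance flags about 1 group in 20. Alcohol A595 was the library in 6 of them. It was low in Aldh1b1 (17.7 CPM), Acss2 (46.1 CPM), Acss3 (12.7 CPM), Slc20a1 (51.0 CPM) and the retinal reductase gene Dhrs3 (72.0 CPM). It was high in the endoplasmic reticulum gene Creld2 (199 CPM, against 32.8 to 39.2 in the other alcohol libraries). Alcohol A503 was low in Mgll (181 CPM).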

How the results depend on the processing

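The 73 calls kept their direction in every alternative, which non-overlapping groups fix in all but the median-of-ratios scaling. Their number did not hold. Against 32 genes called higher and 41 lower, no filter on low values gave 10 and 21, median-of-ratios scaling 70 and 83, sample quality weights 275 and 127, the 7 libraries alone 0 and 1, all 28 libraries 2 and 0, leaving out A523 and A581 gave 1 and 8, and leaving out C158 as well 0 and 3. The cause was not tested. The last 2 and the fit of the 7 libraries alone have fewer samples than the main fit. Leaving out 1 library gave 2 to 139 higher and 1 to 77 lower. A pseudocount of 0.5 and a mean of 5 CPM stayed within 1.5 times. For the tissue difference, quality weights called 143 higher and 1 lower, against 0 and 0, leaving out 1 library gave 0 to 1 higher, and the fit with the replicate block (correlation 0.17) called 0 higher and 0 lower. No paired analysis was possible because the 2 diets share no mouse. The genotype difference had 0 calls throughout. Signs turned for some genes, not all of them near 0. Under quality weights these were Adh1 0.23, Aldh1b1 0.32, Acss3 0.20, Casp2 0.10 and Plin2 0.13. Without A523 and A581 they were Afp -0.08, Gpc3 -0.65 and Fasn -0.36, and without these and C158 Adh1 0.03 and Fasn -0.30. The rise of Afp rested on A523 and A581, at 212.7 and 159.2 CPM against at most 8.8 CPM in the other FF non-tumor libraries. With 1 library left out, Adh1 ranged from -0.19 to 0.25, Aldh1a1 from -0.19 to 0.10, Aldh1b1 from -0.24 to 0.46, Acss3 from -0.32 to 0.21, Casp2 from -0.20 to 0.14, Cyp4a12a from -0.09 to 1.90, Plin2 from -0.26 to 0.13 and Fasn from -0.00 to 1.02. At depths of 9.52 to 16.8 M, genes under 1 CPM in most libraries were not tested.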

Other observations

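Of 25 extracellular matrix genes tested, none was called, and the median log2 fold change was 0.39. At an unadjusted p of 0.05, 11 were higher and 0 lower, beside 7.49% and 6.47% of all tested genes. The summed CPM of the list did not differ in that direction, at 1833 to 3250 on alcohol and 2247 to 3371 on chow. Mmp12, the elastase of macrophages, read 4.87, 18.1, 12.5 and 2.88 CPM on alcohol, against 1.25, 1.36 and 0.829 CPM on chow (2.04 ± 0.50, limma adjusted p = 0.079). Loxl2, a collagen cross-linking enzyme, stood at 9.97 ± 3.31 against 4.63 ± 0.192 CPM (0.91 ± 0.23, adjusted p = 0.089), and Col1a2 at 24.5 ± 10.8 against 11.1 ± 2.51 CPM (0.99 ± 0.30, adjusted p = 0.16). The 7 stellate cell markers had a median of 0.07. Outside the list, the focal adhesion gene Vcl rose from 45.1 ± 1.58 to 65.7 ± 6.14 CPM (0.53 ± 0.10, adjusted p = 0.04), the endoplasmic reticulum lectin gene Mlec from 117 ± 7.46 to 211 ± 47.5 CPM (0.82 ± 0.15, adjusted p = 0.032), and spermidine synthase, Srm, from 7.55 ± 1.05 to 14.1 ± 3.29 CPM (0.81 ± 0.16, adjusted p = 0.041). The transcription factor gene Foxp1 fell from 47.8 ± 6.27 to 29.8 ± 4.62 CPM (-0.67 ± 0.14, adjusted p = 0.043). All 4 lost the call when A523, C157, C158 or C159 was left out, and Vcl, Srm and Foxp1 also without A581 (adjusted p up to 0.17).

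In the apoptosis and injury list 20 of 22 had a positive change (median 0.32) with no call, beside 6464 of all 12651 tested genes with a positive change. Among the 20 were the BH3 gene Bid (17 ± 3.57 against 9.69 ± 0.649 CPM, 0.73 ± 0.19, adjusted p = 0.095) and Anxa2 (42.1, 85.6, 83.4 and 16.2 CPM against 12.1, 20.7 and 11.4 CPM). Of 15 immediate early and heat shock genes 8 were higher and 0 lower at an unadjusted p of 0.05 (median 0.54), beside 7.49% and 6.47% of all tested genes. Library A595 was highest in Hspb1 (114 CPM) and Hsp90aa1 (582 CPM). Eda2r, a p53 target, stood at 7.77 ± 2.22 against 2.81 ± 0.563 CPM (1.17 ± 0.25, adjusted p = 0.053), and Hmox1, heme oxygenase, at 33.3 ± 2.85 against 20.3 ± 1.93 CPM (0.69 ± 0.17, adjusted p = 0.083). Lower in every alcohol library were Hacl1, a peroxisomal lyase of branched fatty acids (-1.18 ± 0.25, adjusted p = 0.053), Crot, a peroxisomal carnitine transferase (-0.68 ± 0.16, adjusted p = 0.058), and Cyp26a1, which degrades retinoic acid (12.7, 6.34, 5.01 and 6.6 CPM against 15.6, 60.4 and 18.3 CPM, adjusted p = 0.15). Rdh11, a retinal reductase, stood at 16.9, 23.9, 44.9 and 12.7 CPM against 59.5, 57.3 and 57.2 CPM (-1.36 ± 0.33, adjusted p = 0.075). The 7 endothelial markers were split, with 3 positive and 4 negative changes (median -0.25). Of these, Ehd3 stood at 50.4 ± 9.95 against 84.5 ± 17 CPM (-0.73 ± 0.16, adjusted p = 0.052). Lyve1 stood on the other side, at 1.115 ± 0.311 (adjusted p = 0.122). The 33 respiratory chain subunits tested had a median of -0.01.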
